A study of Rattus norvegicus with 13 samples.

Results

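The Notch pathway was examined through 10 of its genes in the ventricular zone (VZ) of the newborn rat brain. These were the receptors *Notch1*, *Notch2* and *Notch3*, the ligands *Dll1*, *Dll3* and *Jag1*, the nuclear mediator *Rbpj*, and the transcriptional targets *Hes1*, *Hes5* and *Hey1*. They were chosen by name, with earlier results of these data known. Where a name has several rows in the table of normalized counts, the row with the highest mean is taken, but each of the 10 names had 1 row, out of 14716 rows in all, and all 10 were among the 14606 rows tested. RNA was sequenced from laser captured epithelium of the posterior ventricle of male Long Evans pups on postnatal day 2, with 1 pup per litter. The 7 control pups were born to dams given plain deionized water and were euthyroid. The 6 hypothyroid pups were born to dams given 3 ppm propylthiouracil (PTU), a drug that blocks thyroid hormone synthesis, in the drinking water through pregnancy and lactation. The exposure therefore acted on the whole animal and not on the VZ alone, and the methods of the study report that the captured RNA was partly degraded.

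Notch signaling passes between touching cells. A ligand on one cell binds a receptor on its neighbor, the receptor is cut by proteases, and its freed intracellular part joins the DNA binding protein RBPJ and switches on repressors of the Hes and Hey families. In the embryonic and neonatal VZ the pathway is known for keeping radial glia, the progenitor cells of the brain, in an undifferentiated state, because Hes repressors hold down the proneural genes. Cells that leave this state raise *Dll1* and thereby signal to the progenitors around them, which is known as lateral inhibition.

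The targets are linked to the pathway by the sites that RBPJ binds. The short core of that site, GTGGGAA or its reverse complement TTCCCAC, was searched on both strands in the 250 bases before the annotated start of transcription, using promoter sequences of RefSeq (build GRCr8, not the build to which the reads were aligned). Of the 10 genes, 9 had a promoter in that collection, and 3 of these (*Hes1*, *Hes5* and *Dll1*) held the core. It occurs in 5.27% of all 33469 promoters, and 0.185% hold it at least 2 times, as *Hes5* does. The promoter of the target *Hes1* (chr11:84213046-84213295, minus strand) and the first 184 bases of that of *Hes5* (chr5:170804327-170804510, plus strand) are shown because these targets had the largest differences between groups among the 10 genes, together with the stretch around the core near the ligand *Dll1* (chr1:64993443-64993469, minus strand), the gene that differed in the other direction. For *Hes5* the last 66 bases of the window are not shown. They lie within the annotated gene, which begins before the start of transcription used for that window. Capitals mark the core, and all are written 5′ to 3′ on the strand of the gene.
Hes1: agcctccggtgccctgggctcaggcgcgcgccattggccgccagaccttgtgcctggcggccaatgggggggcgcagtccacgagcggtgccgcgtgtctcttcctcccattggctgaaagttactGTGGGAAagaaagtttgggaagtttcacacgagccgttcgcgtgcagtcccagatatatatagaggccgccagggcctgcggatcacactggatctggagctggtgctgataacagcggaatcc
Hes5: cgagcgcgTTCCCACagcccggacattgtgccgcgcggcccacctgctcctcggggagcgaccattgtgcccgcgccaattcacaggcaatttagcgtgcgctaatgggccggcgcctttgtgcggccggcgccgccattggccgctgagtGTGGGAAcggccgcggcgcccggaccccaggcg
Dll1: ctccagcccgTTCCCACcgtgcccctc
Positions are counted to the start of transcription used for the window and not to the end of the printed stretch. The core began 124 bases before that start in *Hes1*, 242 and 99 bases before it in *Hes5*, and 185 bases before it in *Dll1*. In *Hes5* the cores lie closer than this to the first base of the annotated gene. A match in letters is a description and does not show that RBPJ is bound there. No core was found in the windows of *Notch1*, *Notch2*, *Notch3*, *Dll3*, *Jag1* or *Rbpj*.

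The comparison asked whether transcripts of the pathway differed between hypothyroid and euthyroid VZ. The targets *Hes1* and *Hes5* and the receptors *Notch2* and *Notch3* had lower means in PTU pups, with differences from -25.6% (*Notch3*) to -32.8% (*Hes1*), and the ligand *Dll1* had a mean 21.4% higher. In limma on log2(normalized count + 1), none of the 10 genes passed the threshold (an adjusted p of 0.05), and neither did any of the 14606 rows (0% called, with a smallest adjusted p of 0.0981). By DESeq2, the study itself reported differentially expressed genes between these groups at a q-value of at most 0.05. In limma, *Hes1*, *Hes5*, *Notch2*, *Notch3* and *Dll1* had an unadjusted p under 0.05, 4 of them lower and 1 higher. By that rule 8.2% of all rows were lower and 8.11% higher. In either direction that is 5 of 10 genes, where 16.3% of all rows had such a p. As the genes were chosen with earlier results of these data known, these shares are described and not tested. The pups of the groups overlapped in all 10 genes, while they did not overlap in 0.596% of all rows. The two-sided exact permutation p-values given below for the 5 genes are not adjusted. In the same test p was 0.112 for *Notch1*, 0.13 for *Jag1*, 0.269 for *Dll3*, 0.379 for *Hey1* and 0.801 for *Rbpj*. Of the 10 genes, 9 had a negative log2 fold change between PTU and control (log2FC), with a median of -0.23 beside 0.00 over all rows. Setting the summed counts of all pups equal moved the median of all rows to 0.20. On that scale 5 of the 10 genes were negative and 5 positive, with a median of -0.03, *Dll1* was the 1 gene with an unadjusted p under 0.05, and 0.554% of all rows were then lower and 10.8% higher by that rule.

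**Figure D1:**
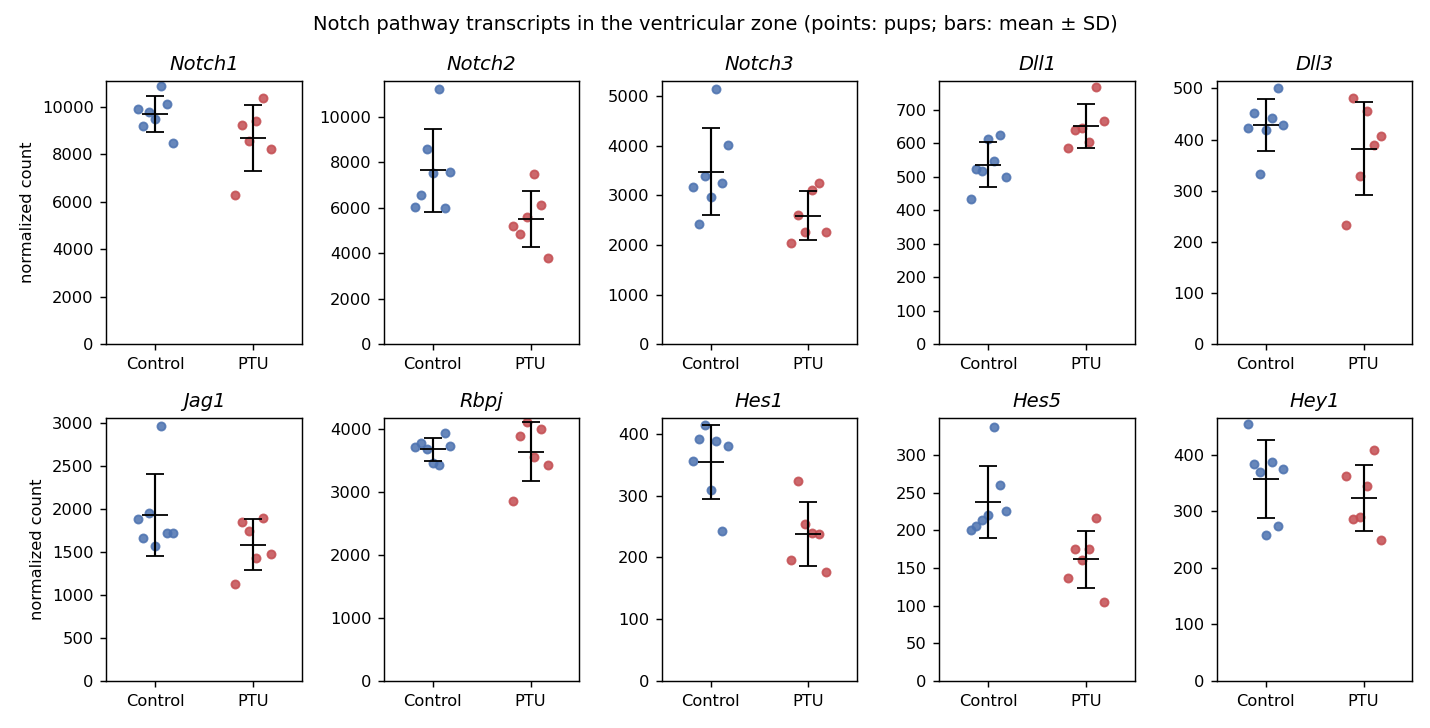
Normalized counts (vertical axes, from 0) of the 10 Notch genes in 7 control and 6 PTU pups, 1 point per pup, with the mean and SD as bars. For *Hes5*, 5 of 6 PTU pups lay below the lowest control pup, and for *Dll1* 4 of 6 lay above the highest; the groups overlapped in all 10 panels.

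Values come from captured tissue in bulk, in which fewer cells of a type and less RNA per cell cannot be told apart. The reads behind each pup, estimated from the step between low values, ranged from 22295679 to 44388421, and the 3 highest rows took 23.9 to 60.1% of them. Radial glia markers were well represented: 11 of 12 were found, *Sox2* among them at a mean of 7107 normalized counts in controls, and their sum ranged from 125014 to 165769 in controls and from 99966 to 136218 in PTU pups. Transcripts known from other cells were present too, among them those of the choroid plexus, which according to the study was not part of the captured tissue. The 10 choroid plexus markers summed to between 51412 and 143630 in controls and between 23906 and 103009 in PTU pups, while the 12 neuron markers summed to between 56747 and 80889 and between 72935 and 131529. In limma, 7 of 11 radial glia markers had an unadjusted p under 0.05 and were lower in PTU pups, as were 6 of 10 choroid plexus markers, and 5 of 12 neuron markers were higher by the same rule. Of all rows, 8.2% were lower and 8.11% higher by that rule. With equal totals the medians of these 3 lists were -0.09, -0.56 and 0.59 in that order, and 0 radial glia, 2 choroid plexus and 6 neuron markers had an unadjusted p under 0.05. On that scale 0.554% of all rows were lower and 10.8% higher, and the median of all rows was 0.20. In the main fit the astrocyte markers had a negative log2FC in 6 of 6 (3 with an unadjusted p under 0.05, median -0.27). The oligodendrocyte lineage markers had a positive one in 8 of 8 (2 with such a p, median 0.30). With equal totals these were 4 of 6 (0 with such a p, median -0.07) and 8 of 8 (4 with such a p, median 0.50). Every marker found in the radial glia, choroid plexus and neuron lists had a mean of at least 10 normalized counts.

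*Hes1* encodes a repressor that sustains neural progenitors and is the gene of the 10 with the smallest p in limma. Control pups spanned 243 to 414 normalized counts around a median of 381, and PTU pups spanned 176 to 324 around 239. All 6 PTU pups were below the control mean, and 4 of 6 were below the lowest control, pup 6, which overlapped with the upper PTU pups. The means were 355 ± 59.5 (SD, n = 7) and 238 ± 51.4 (SD, n = 6), a log2FC of -0.58 (SE 0.16, limma adjusted p = 0.143; two-sided exact permutation p = 0.00641). Without PTU pup 2, the exposed pup with the highest *Hes1*, the log2FC was -0.67 and the adjusted p was 0.0499 in limma, in a fit that called 179 of all rows where the main one called 0. With equal totals the unadjusted p of *Hes1* in limma was above 0.05. Over all 30 alternatives the adjusted p ranged from 0.0499 to 1.00.

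*Hes5*, a second repressor of the same family and a marker of Notch activity in radial glia, rested on 130 to 364 estimated reads per pup. Its values lay between 200.1 and 338 normalized counts in controls (median 219.8) and between 105 and 216 after PTU exposure (median 167). Only PTU pup 5 reached into the control range, and control pup 5 stood above the other controls. The means of 238 ± 48.4 and 161 ± 38.0 gave a log2FC of -0.57 (SE 0.18, limma adjusted p = 0.171; two-sided exact permutation p = 0.00291).

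*Hey1*, a target from a related family of repressors, had an unadjusted p above 0.05. It lay between 258 and 455 normalized counts in controls and between 249 and 408 in PTU pups, so the groups overlapped almost fully. The log2FC was -0.14, with a 95% interval from -0.47 to 0.19 (limma adjusted p = 0.685). That interval includes 0 as well as differences about as large as that of *Notch2*. When single pups were left out, the log2FC lay between -0.21 (without control pup 4) and -0.07 (without PTU pup 6).

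Among the receptors, *Notch2* had the largest difference. *Notch2* is expressed by progenitors and is known for holding neural stem cells in quiescence. Its level spanned 5997 to 11192 normalized counts in control pups (median 7543) and 3791 to 7486 in PTU pups (median 5382). All PTU pups were below the control mean and 4 of 6 below the lowest control, whereas PTU pup 4 lay near the control median. The means were 7634 ± 1823 (SD, n = 7) and 5503 ± 1249 (SD, n = 6), a log2FC of -0.47 (SE 0.15, limma adjusted p = 0.174; two-sided exact permutation p = 0.021). The log2FC was -0.27 with equal totals (limma unadjusted p = 0.171).

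*Notch3*, a receptor of progenitors that is also well known in pericytes and smooth muscle of vessels, followed the same direction. It lay between 2419 and 5153 normalized counts in controls (median 3260.4) and between 2047 and 3257 in PTU pups (median 2438), and 3 of 6 PTU pups were below the lowest control. With means of 3481 ± 877 and 2591 ± 494, the log2FC was -0.41 (SE 0.15, limma adjusted p = 0.204; two-sided exact permutation p = 0.0338). The 10 pericyte and smooth muscle markers, all found, had log2FCs in both directions around a median of 0.04. *Pdgfrb*, a receptor of pericytes, was at -0.26 and *Cspg4*, which oligodendrocyte precursors also express, at 0.36, the 2 markers of the list with an unadjusted p under 0.05, both named after their values were seen. The sum of the list ranged from 4236 to 5350 in controls and from 4116 to 5486 in PTU pups. With the score of these markers as a covariate, the log2FC of *Notch3* was -0.40. It was -0.21 with equal totals (limma unadjusted p = 0.267).

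*Notch1*, the receptor on which progenitor maintenance in the cortex depends most, had an unadjusted p above 0.05. The means were 9687 ± 749 (SD, n = 7) and 8681 ± 1387 (SD, n = 6). Controls ranged from 8471 to 10856 normalized counts and PTU pups from 6289 to 10383. The log2FC was -0.17, with a 95% interval from -0.38 to 0.04 (limma adjusted p = 0.405), and it was -0.08 without PTU pup 1, the lowest pup.

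The receptors were also compared within each pup, since a ratio of 2 genes in the same pup does not depend on how the pup was scaled. The log2 ratio of *Notch2* to *Notch1* averaged -0.37 ± 0.30 (SD, n = 7) in controls and -0.67 ± 0.33 (SD, n = 6) in PTU pups, a difference of -0.30 that 4 of 6 PTU pups showed and that did not pass an exact permutation test (p = 0.114, or 0.208 after adjustment over 3 ratios). For *Notch3* to *Notch1*, the difference was -0.24, in the direction of which 6 of 6 PTU pups lay (exact permutation test, p = 0.139, adjusted p = 0.208). Thus a difference between receptors in their response was not shown. The log2 ratio of *Hes5* to *Hes1* was -0.58 ± 0.40 in controls and -0.57 ± 0.26 after PTU exposure (difference 0.01, exact permutation test, p = 0.955).

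**Figure D2:**
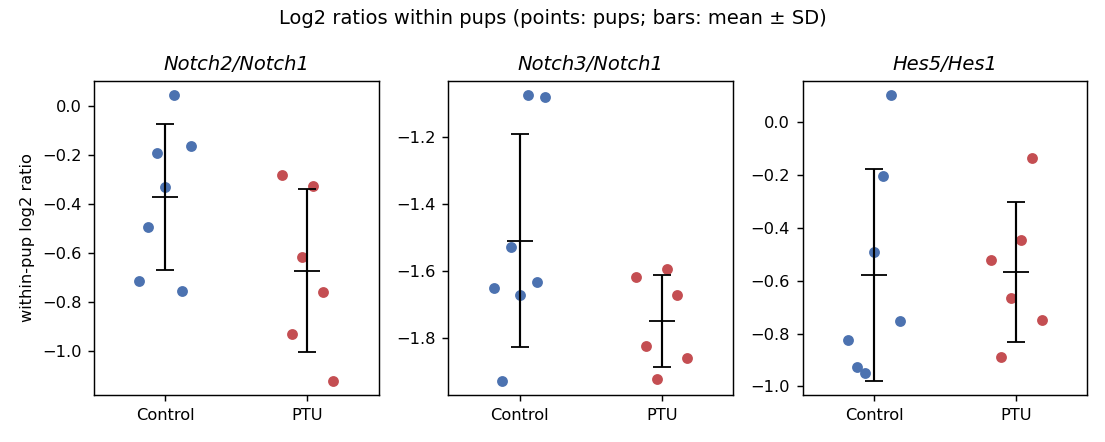
Log2 ratio of 2 transcripts within each pup (vertical axes) for *Notch2* to *Notch1*, *Notch3* to *Notch1* and *Hes5* to *Hes1*, 1 point per pup with mean and SD, for 7 control and 6 PTU pups. The ranges of the groups overlap in each panel, and the mean of *Hes5* to *Hes1* differs by 0.01.

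*Dll1*, the ligand raised in cells that begin to differentiate, was the single gene of the 10 with a higher mean after PTU exposure. It lay between 432 and 624 normalized counts in controls (median 523) and between 584 and 769 in PTU pups (median 641). All 6 PTU pups were above the control mean and 4 were above the highest control; control pups 4 and 6 overlapped with the lower PTU pups. The means of 536 ± 66.5 (SD, n = 7) and 651 ± 64.6 (SD, n = 6) gave a log2FC of 0.28 (SE 0.11, limma adjusted p = 0.218; two-sided exact permutation p = 0.00874).

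The other ligands had an unadjusted p above 0.05, and with equal totals *Dll3* was at 0.0082 and *Jag1* at -0.07. *Dll3*, a divergent ligand of neuronal precursors that acts inside the cell on the Notch of that same cell, lay between 332 and 501 normalized counts in controls and between 233 and 481 in PTU pups (log2FC -0.19, 95% interval from -0.52 to 0.14, limma adjusted p = 0.557), and its log2FC was -0.06 without PTU pup 1. *Jag1*, a ligand of the Serrate type, ranged from 1562 to 2964 in controls and from 1124 to 1886 in PTU pups, with all 6 PTU pups below the control mean (log2FC -0.27, 95% interval from -0.58 to 0.03, limma adjusted p = 0.358). The highest control pup, pup 5, stood apart for *Jag1*, and without it the log2FC was -0.16, while it was -0.18 without PTU pup 1.

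*Rbpj*, through which all receptors act, had nearly equal means of 3682 ± 182 (SD, n = 7) and 3644 ± 466 (SD, n = 6) normalized counts. The log2FC was -0.02, with a 95% interval from -0.20 to 0.15 (limma adjusted p = 0.916). PTU pup 1 was the lowest at 2859 and PTU pup 3 the highest at 4121, and the controls lay between them. With equal totals the log2FC was 0.18, near the shift of all rows.

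**Figure D3:**
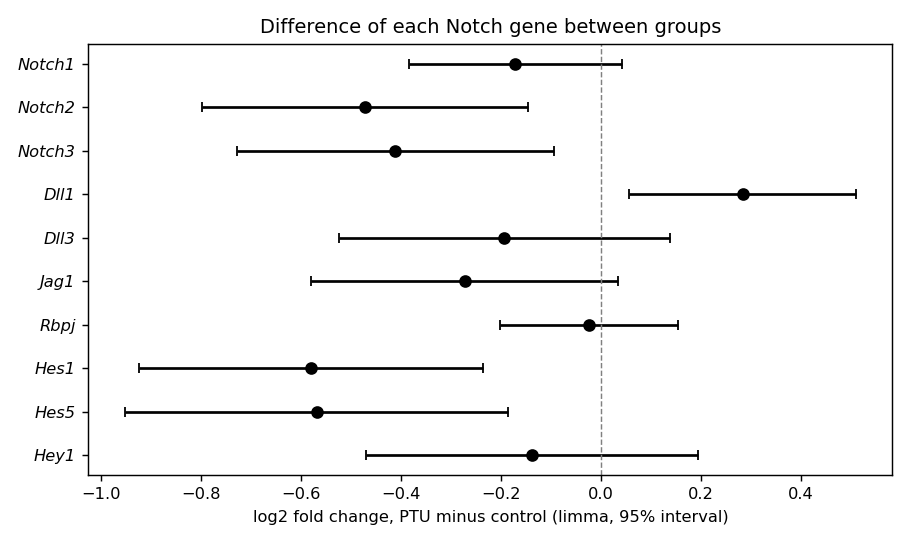
Log2 fold change between PTU and control pups (horizontal axis, limma on log2(normalized count + 1)) of the 10 Notch genes, with 95% intervals. The intervals of *Notch2*, *Notch3*, *Hes1* and *Hes5* lie below 0 and that of *Dll1* above it before adjustment for the 14606 rows tested; none of the genes passed after adjustment.

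The extremes of the 10 genes fell on few pups. Control pup 5 was the highest of all 13 pups for 5 genes (*Notch1*, *Notch2*, *Notch3*, *Jag1* and *Hes5*). PTU pup 1 was the lowest for 5 (*Notch1*, *Notch3*, *Dll3*, *Jag1* and *Rbpj*) and PTU pup 6 for 4 (*Notch2*, *Hes1*, *Hes5* and *Hey1*). These pups also stood at the ends of the cell type scores, which are means of centred log2 values over a marker list. Control pup 5 had the highest radial glia score, 0.35, and the lowest neuron score, -0.88, whereas PTU pup 1 had the highest neuron score, 1.46. PTU pup 6 had the lowest radial glia score and the lowest choroid plexus score, -0.41 and -1.69. With control pup 5 and PTU pup 1 both left out, a choice made after seeing the data, *Notch2*, *Hes1* and *Hes5* had log2FCs of -0.36, -0.50 and -0.44 and *Dll1* 0.32, all with an unadjusted p under 0.05 in limma, while *Notch3* was at -0.25 (unadjusted p = 0.0697). By that rule 6.47% of all rows were then lower and 5.66% higher. *Notch1* was at -0.05, *Dll3* at -0.05, *Jag1* at -0.07 and *Rbpj* at 0.03, genes for which 1 or both of these pups were the extremes.

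The levels of the marker lists moved with the groups, so the 10 genes were also fitted with marker scores as a covariate. With the radial glia score, the log2FCs of *Hes1*, *Hes5*, *Notch2* and *Notch3* were -0.16, -0.10, -0.11 and -0.03, none of the 10 genes had an unadjusted p under 0.05, and 1.82% of all rows were lower and 1.99% higher by that rule. *Dll1* was then 0.24 (unadjusted p = 0.16). With the neuron score, *Hes1* was -0.46 and *Dll1* 0.34, both with an unadjusted p under 0.05 in limma, and *Notch2*, *Hes5* and *Notch3* were -0.32, -0.37 and -0.25. By that rule 5.26% of all rows were then lower and 4.90% higher. With the choroid plexus score, *Hes1* was -0.40, the 1 gene left with an unadjusted p under 0.05; *Notch2* was -0.17, *Notch3* -0.33, *Hes5* -0.44 and *Dll1* 0.23. Here 6.24% of all rows were lower and 6.22% higher, so 1 of 10 was near the share of all rows. The radial glia score was itself lower by 0.32 in PTU pups, and the part of marker levels in the differences of the Notch genes was not tested further.

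**Figure D4:**
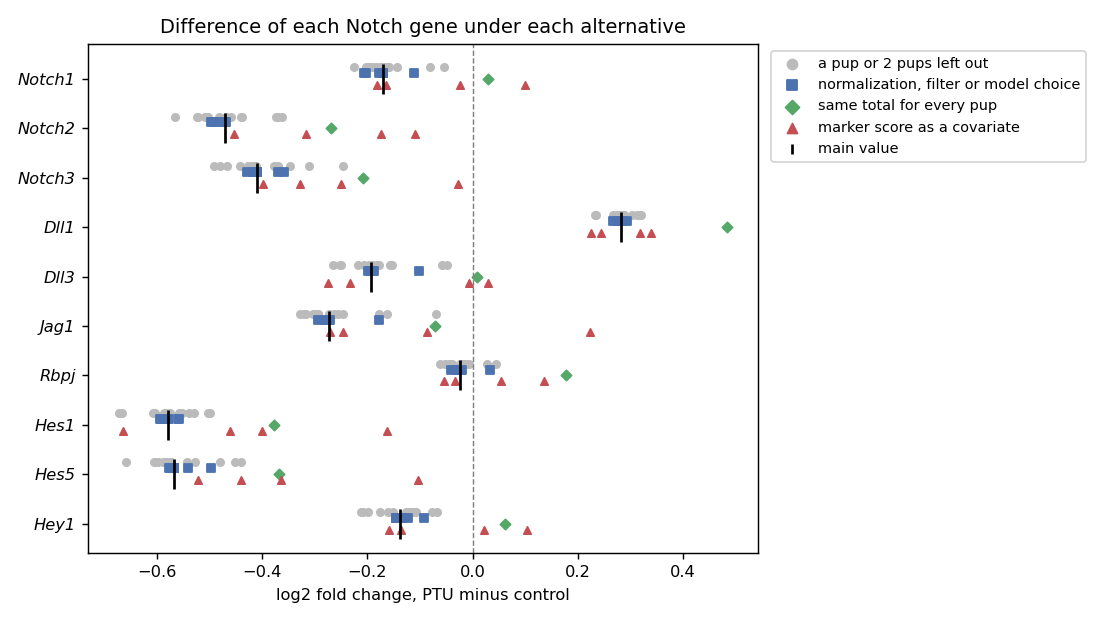
Log2 fold change of each Notch gene (horizontal axis) in the main fit and under every alternative: pups left out, other normalization, filter or model, the same total for every pup, and marker scores as covariates. *Dll1* stays above 0, between 0.23 and 0.48, and *Hes1*, *Hes5*, *Notch2* and *Notch3* stay below 0 in every alternative, nearest to it with a marker score as a covariate; *Notch1*, *Dll3*, *Jag1*, *Rbpj* and *Hey1* lie on both sides.

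The wider pathway was read from 84 further genes in 7 groups, of which 79 were found and tested. In limma none had an adjusted p of at most 0.05, 6 were lower and 3 higher with an unadjusted p under 0.05 (7.59% and 3.80%, beside 8.2% and 8.11% of all rows), and the median log2FC was -0.07. The further genes named are those with the smallest p in limma or the highest mean of their group and counterparts of the 10, chosen for their role (*Notch4*, *Dll4*, *Jag2*, *Lfng*, *Numb*, *Nrarp*, *Heyl*, *Hes6* and *Neurog2*); *Furin*, *Hey2*, *Dner*, *Hes7*, *Bhlhe40* and *Bhlhe41* were added after their values were seen. The shares of the whole list were not above those of all rows.

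Of the other Hes and Hey genes (*Hes6*, *Hes7*, *Hey2* and *Heyl*) and the related repressors *Bhlhe40* and *Bhlhe41*, all 6 of 6 tested had a negative log2FC (median -0.34; with equal totals 5 of 6 and -0.14), and 2 had an unadjusted p under 0.05 (0 with equal totals). By that rule 8.2% of all rows were lower, or 0.554% with equal totals, which moved the median of all rows to 0.20. With the radial glia score as a covariate, 5 of 6 were negative (median -0.19) and 1 had such a p, where 1.82% of all rows were lower. With the pericyte and smooth muscle score 0 had one, where 8.61% of all rows were lower. *Hes6*, a family member that opposes *Hes1* and promotes differentiation, averaged 1817 ± 483 normalized counts in controls and 1352 ± 105 in PTU pups (log2FC -0.38, SE 0.15, limma adjusted p = 0.23). *Hey2* averaged 331 ± 86.5 and 248 ± 27.4, a log2FC of -0.38 (adjusted p = 0.29). *Heyl* was at -0.27 (adjusted p = 0.438), *Bhlhe40* at -0.30 (adjusted p = 0.405) and *Bhlhe41* at -0.20 (adjusted p = 0.632), and *Hes7* was a low transcript, at 30.5 ± 11.6 and 18.5 ± 15.2.

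Among the other receptors and ligands, 7 of 10 had a positive log2FC (median 0.19), and 2 of these had an unadjusted p under 0.05. By that rule 8.11% of all rows were higher. With equal totals these were 9 and 4 (median 0.39), where 10.8% of all rows were higher and the median of all rows was 0.20. With the radial glia score as a covariate 5 of 10 were positive. A stricter filter on low rows left 7 of the 10 genes, of which 4 were positive (median 0.04) and 1 had such a p. *Dlk1*, a noncanonical ligand that can inhibit Notch, was low, at 20.4 ± 10.6 normalized counts in controls (range 4.64 to 39.3) and 61.5 ± 32.4 in PTU pups (range 22.2 to 95.4), and it had the largest log2FC of the pathway, 1.53 (SE 0.46, limma adjusted p = 0.15). *Dner*, a neuronal ligand, was at 0.33 (adjusted p = 0.28) and *Jag2* at 0.47 (adjusted p = 0.359). The vascular pair *Notch4* and *Dll4* had log2FCs of -0.19 and 0.04 (adjusted p = 0.575 and 0.934), and *Cntn1*, the highest of this group, was at -0.03.

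None of the modifiers, proteases and regulators had an adjusted p of at most 0.05, and the medians of these groups lay between -0.16 and -0.04, or between 0.04 and 0.16 with equal totals. *Lfng*, a glycosyltransferase that adds sugars to Notch and shifts its response toward Delta ligands, averaged 1294 ± 272 and 986 ± 278 normalized counts, with all 6 PTU pups below the control mean (log2FC -0.42, SE 0.18, limma adjusted p = 0.269). *Mib1*, the ligase that activates ligands, was at -0.11 (adjusted p = 0.466). Of 9 proteases, *Adam17* and *Furin* had an unadjusted p under 0.05, at -0.24 each (adjusted p = 0.265 and 0.292), while *Adam10*, which makes the first activating cut, was at -0.08 (adjusted p = 0.658). Of 12 inhibitors and turnover genes, none had an unadjusted p under 0.05: *Nrarp*, a feedback inhibitor that is itself a Notch target, was at -0.22 (adjusted p = 0.319), *Numb*, which promotes removal of the receptor, at 0.04 (adjusted p = 0.914) and *Aak1*, the highest of the group, at 0.03. Neither did any of the 18 coactivators and corepressors, with *Hdac1* at -0.26 (adjusted p = 0.318) and *Spen* at -0.05 (adjusted p = 0.847).

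Hes repressors are known to hold down proneural genes such as *Neurog2*. Of 13 proneural and neurogenic genes, a list that also holds genes of later steps such as *Eomes*, *Tbr1*, *Sox4*, *Sox11* and *Dcx*, none had an adjusted p of at most 0.05. *Neurog2*, which drives progenitors toward neurons, had a log2FC of -0.34 (limma adjusted p = 0.371). *Eomes*, which marks intermediate progenitors, had the smallest p of this group in limma, with 2407 ± 570.2 and 1682 ± 219.8 normalized counts and a log2FC of -0.49 (SE 0.15, adjusted p = 0.15). With replicate numbers as a block, *Eomes* was at -0.61 (limma adjusted p = 0.0475), although these numbers were not taken to pair the pups. *Dcx*, a microtubule protein of migrating neuroblasts that is also on the neuron list, and the highest transcript of the group, was at 0.26 (adjusted p = 0.217). Of 13 genes in this group, 10 had a negative and 3 a positive log2FC. With equal totals, which moved the median of all rows by 0.20, these were 5 and 8.

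**Figure D5:**
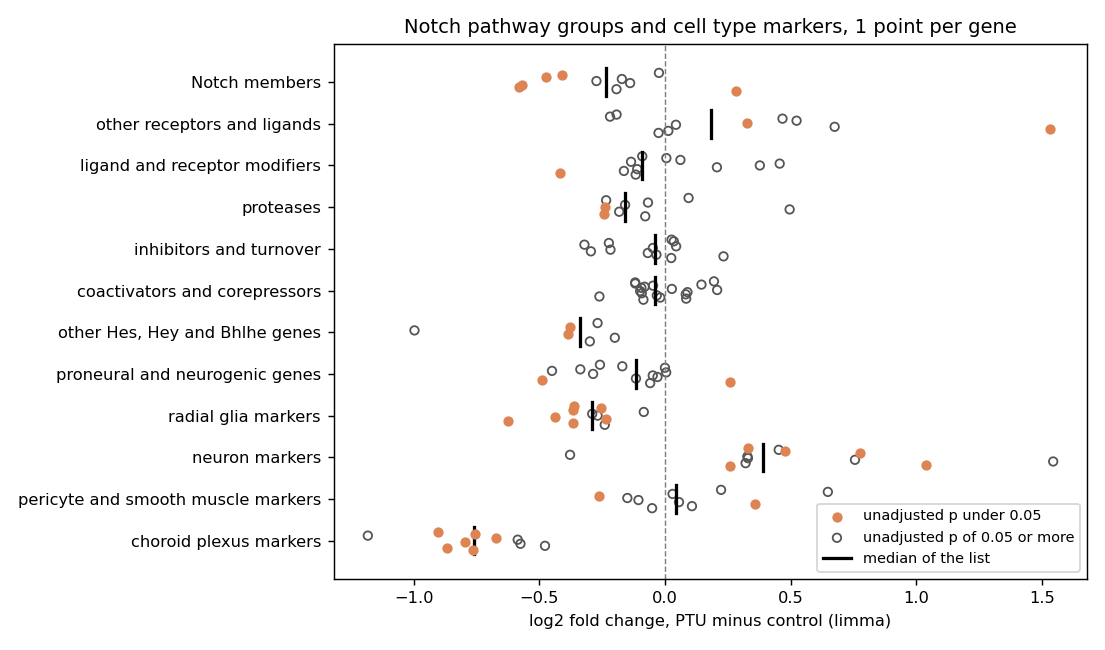
Log2 fold change between PTU and control pups (horizontal axis) of the 10 Notch genes, the 7 further groups of the pathway and 4 lists of cell type markers, 1 point per gene, filled where the unadjusted p was under 0.05, with the median of each list as a line. The other Hes and Hey genes with *Bhlhe40* and *Bhlhe41* lie below 0 with a median of -0.34, the radial glia markers have a median of -0.29, the choroid plexus markers of -0.76 and the neuron markers of 0.39.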

How the data were processed

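RNA of 13 captured ventricular zones, 7 control and 6 PTU, was compared. According to the methods, the authors used Trimmomatic, STAR 2.7.8a on mRatBN7.2 and the Partek expectation/maximization quantification of transcripts from stranded total RNA libraries, and then normalized by median ratio. What they deposited is thus a non-negative signal (normalized counts), not raw counts; the columns of a DESeq2 comparison by the authors (p-values, fold changes, group means) were left unused. Groups came from the sample titles, and no column of values was left out. Rows averaging at least 10 went into limma 3.58.1 (R 4.3.3; variance trend; Benjamini-Hochberg over all rows, threshold 0.05) on the scale log2(normalized count + 1), where changes of low transcripts appear smaller. Single values were also tested by enumerating all 1716 regroupings (two-sided exact permutation, smallest p 0.000583). Pups came from separate litters. For depth, the value of 1 read was read off the steps among low values: 90.0 to 91.6% of values from 20 to 150 lay within 0.1 of a whole multiple, short of nearly all, so no count model was used. Members and lists were chosen with earlier results of these data known. Named are the 10 members, the smallest p and highest mean of each pathway group, and counterparts of the members; *Furin*, *Hey2*, *Dner*, *Hes7*, *Bhlhe40*, *Bhlhe41*, *Pdgfrb* and *Cspg4* were added after their values were seen, and 1 counterpart is not reported here. Alternatives were other pseudocounts (0.1, 10), filters, scalings (TMM, quantile, equal totals), rows summed per gene, array weights, no trend, a robust prior, a replicate block, marker score covariates and each pup left out. Code was tested on simulated data. The remaining steps used Python 3.11.15 with scipy 1.17.1, pandas 2.3.3, numpy 2.4.6 and matplotlib 3.10.9.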

Additional observations from a re-analysis of the deposited data

Results flagged for a closer look

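*Jag1* in control pup 5, at 2964 normalized counts, lay far from the other 6 control pups, which ranged from 1562 to 1950.2; the gap was 0.723 of the range of the group, above the limit of 0.568. Of 26 groups of values examined in this way this was the single one, and chance gives about 1 in 20. Without this pup the log2 fold change of *Jag1* was -0.16.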

How the results depend on the processing

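None of the 14606 rows was called in the main fit, beside 40 with array weights, 18 with the replicate block, 2 with the choroid plexus score as a covariate and from 0 to 179 when pups were left out, the most without PTU pup 2 and 7 without control pup 6. Of the 10 Notch genes, from 0 to 1 was called when pups were left out (*Hes1* at -0.67 without PTU pup 2) and 0 under every other alternative. The 5 genes with an unadjusted p under 0.05 became 1 with the same total for every pup, 2 with the neuron score, 1 with the choroid plexus score and 0 with the radial glia score, settings whose shares of all rows are given with the results. They became 6 with the replicate block (10.2% of all rows lower and 10.1% higher), and 4 to 7 when pups were left out, the most without PTU pup 5 (7.37% and 7.49%). Of the pathway list, 1 gene (*Eomes*, log2 fold change -0.61) was called with the replicate block. Replicate numbers belong to pups of different litters, and deviations of pups with the same number correlated above 0.1 in 4 of 6 pairs but at -0.07 and 0.0069 in the other two; since not every pair passed, the numbers were not taken to pair the pups.

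The following log2 fold changes turned in direction, and the cause was not tested. With the same total for every pup, *Notch1* was 0.030, *Dll3* 0.0082, *Rbpj* 0.18 and *Hey1* 0.062. With the radial glia score, *Notch1* was 0.10, *Dll3* 0.029, *Jag1* 0.22, *Rbpj* 0.14 and *Hey1* 0.10. *Rbpj* was also 0.033 with array weights and 0.054 with the neuron score, *Hey1* was 0.022 with the choroid plexus score, and *Rbpj* ranged from -0.061 to 0.044 when pups were left out. The log2 ratio of *Hes5* to *Hes1* differed by -0.018 over pups paired by the replicate block and by -0.075 to 0.12 when pups were left out. The ratios of *Notch2* and *Notch3* to *Notch1* kept their direction under all 18 alternatives, with adjusted p of at least 0.104 in exact permutation tests. The 95% intervals of *Notch1*, *Dll3*, *Jag1* and *Hey1* include 0, so differences of their size could not be told from none with 13 pups.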
